A study of Homo sapiens with 2 samples.

Results

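The genes for mitochondrial ribosomal proteins were described on 2 arrays of GFP-SAS cells, 1 from cells given an inhibitor of the microRNA miR-361-3p and 1 from cells given a control oligonucleotide. The members are all genes whose only annotated symbol has the form MRPL or MRPS followed by a number, with pseudogenes left out. They numbered 76 of the 11272 genes with a value, 48 named for the large subunit of the ribosome and 28 for the small subunit. Symbols alone decide membership, but the group itself was chosen by its differences between these 2 arrays, so the values below are a description and support nothing further.

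SAS is an established line of human squamous cell carcinoma of the tongue, and GFP-SAS carries green fluorescent protein. For 24 h the treated cells were exposed to a 25 nM antisense inhibitor of miR-361-3p built from LNA and DNA, and the control cells to 25 nM of a non-target (NT) LNA/DNA oligonucleotide. Locked nucleic acids (LNA) are modified nucleotides that strengthen pairing with a target RNA. Each group was 1 array of 1 line, so no error between cultures, no interval and no p-value could be computed. The strand that the inhibitor was directed against is shown here from RefSeq (GRCh38.p14, chrX:85903641-85903663, minus strand), 5′ to 3′, with the seed (bases 2 to 8) in capitals.
hsa-miR-361-3p: uCCCCCAGgugugauucugauuu

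Mitochondria translate the few proteins encoded by their own DNA, which are core subunits of the respiratory chain and ATP synthase. Their ribosome has a large subunit that joins amino acids and a small subunit that reads the messenger RNA. Both rRNAs come from mitochondrial DNA, while every ribosomal protein is encoded in the nucleus, made in the cytosol and imported. Some of the proteins descend from bacterial ribosomal proteins and others exist in mitochondrial ribosomes alone. MRPL58 is also a peptidyl-tRNA hydrolase, and structural work has placed MRPS18A and MRPS30 in the large subunit despite their names. The symbols were followed here.

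Differences are given in log2 units, with positive values where the anti-miR array was higher, so that 1 unit is 2-fold. A gene's value is the mean of its retained probe sets, those at or above the median of either array. Of 163 probe sets for the members 150 were retained, and no member lost all of its probe sets. Only 5 of the 150 reached the median on 1 array alone, 1 each of MRPL15, MRPL17, MRPL35 and MRPS11 on the anti-miR array and 1 of MRPS27 on the control array. The median gene of the whole table differed by 0.13. Spiked-in poly-A control transcripts gave 0.32 ± 0.19 (SD, 12 probe sets), and hybridization controls 0.09 ± 0.10 (SD, 9 probe sets). The part of these offsets in the values of the members was not tested. Of 10 squamous epithelial markers 6 lay above the nonspecific control probe sets on both arrays, among them KRT5, SFN and EPCAM. None of the 6 fibroblast, 5 leukocyte, 4 endothelial and 4 muscle markers did. KRT14 was at 3.87 and 3.63 on the anti-miR and control arrays, below the median, and KRT6A, KRT17 and TP63 had no probe set with a single symbol.

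Most mitochondrial ribosomal protein genes were slightly higher on the anti-miR array, and a minority were lower. The median difference was 0.28 over all 76 genes, 0.28 over the 48 large subunit genes and 0.33 over the 28 small subunit genes, against 0.13 over all 11272 genes. Relative to that gene, the medians were 0.15, 0.15 and 0.20. Values above 0 were found for 36 large subunit genes and 20 small subunit genes, together 73.7% of the members, against 62.3% of all genes. Above the median gene lay 34 large and 19 small subunit genes, so the sign of MRPL28 (0.06), MRPL33 (0.03) and MRPS34 (0.06) turns when that median is subtracted. In RNA from a whole culture, a change in the number of cells of a kind and a change in RNA per cell cannot be told apart.

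The shifts were small. At 2-fold, 0 of 76 members were higher, beside 1.23% of all genes, and 0 were lower, beside 6.98%. The members ranged from -0.68 (MRPS28) to 0.91 (MRPL44). The SD over members was 0.36, against 0.58 over all genes. At least 1.5-fold higher were 10 of 76 members (13.2%), beside 8.23% of all genes, and at least 1.5-fold lower were 3 (3.95%), beside 14.2% of all genes. With the median of all genes subtracted, 3 of 76 members were higher and 3 lower, beside 499 and 1951 of 11272 genes. The 3 still higher were MRPL44 (0.78), MRPL32 (0.71) and MRPS18B (0.65). With a trend on level subtracted 5 of 76 members were higher and 3 lower, beside 547 and 1898 of 11272 genes. With nothing subtracted, the higher large subunit members were MRPL44, MRPL32, MRPL4, MRPL55, MRPL2, MRPL10, MRPL27 and MRPL54. Those of the small subunit were MRPS18B and MRPS2. The lower members were MRPL1, MRPS27 and MRPS28. Just past the threshold of 0.58 lay MRPL54 and MRPL27 (0.60 each), and just short of it MRPS25 (0.58) and MRPL34 (0.57).

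**Figure D1:**
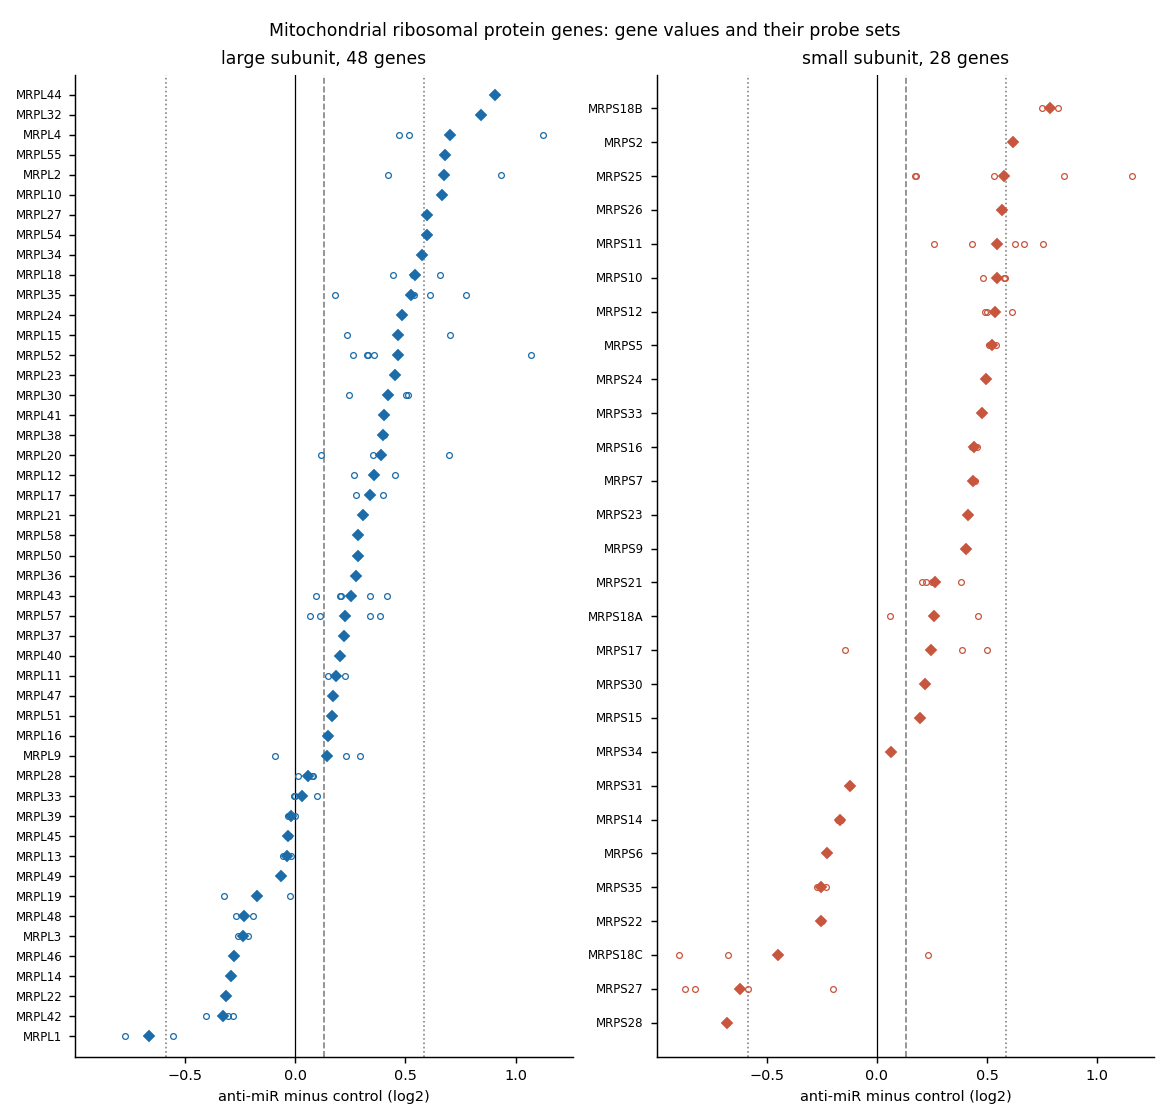
Difference between the arrays for each mitochondrial ribosomal protein gene (anti-miR minus control, log2), large subunit on the left and small subunit on the right. Diamonds are gene values and open circles their retained probe sets, the dashed line is the median of all genes (0.13) and the dotted lines mark 1.5-fold. Genes run from MRPL44 (0.91) to MRPL1 (-0.66) and from MRPS18B (0.78) to MRPS28 (-0.68), with most diamonds to the right of 0.

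Most members were brighter than the nonspecific controls. Of 76 members 72 had at least 1 probe set above the highest nonspecific control probe set on both arrays (at 7.16 for anti-miR and 6.87 for control), beside 39.7% of all genes. The 4 without such a probe set were MRPL2, MRPS18A, MRPS27 and MRPS28. MRPL2 lay within the nonspecific range on both arrays. MRPS27 and MRPS28 were above it on the control array alone, and MRPS18A on the anti-miR array alone. For these 4 genes the fold is not an exact size. Of the 150 retained probe sets 111 lay above the nonspecific controls on both arrays. By mean level, 38 members lay between 8 and 10, where the 1604 genes of that range had a median of 0.14 and the members a median of 0.28. Another 12 members lay above 10, with a median of 0.25 beside 0.13 for 417 genes.

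**Figure D2:**
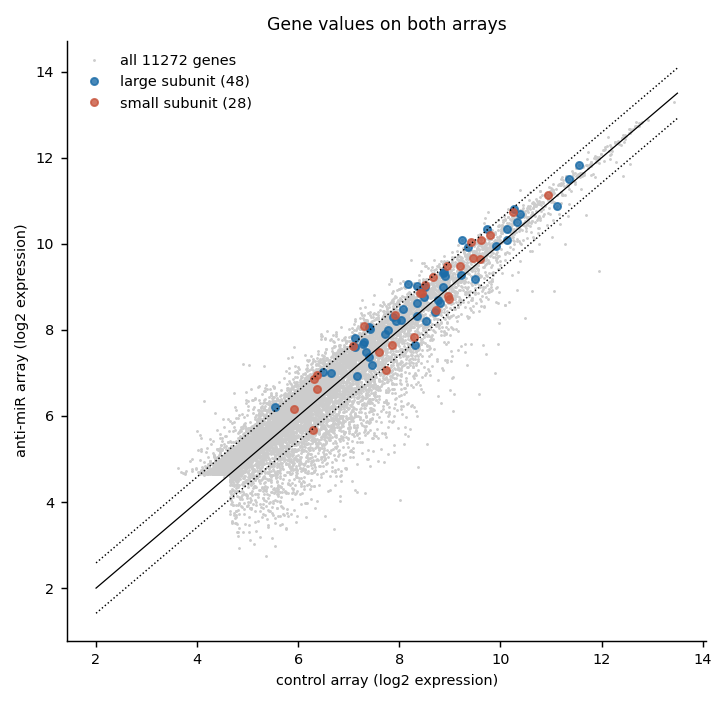
Gene values on the anti-miR array (vertical axis) against the control array (horizontal axis), both log2 expression, for all 11272 genes in grey and for 48 large and 28 small subunit genes in colour. The solid line marks equal values and the dotted lines 1.5-fold. The members lie in a narrow band, mostly on the upper side of the line of equal values, and 10 lie past the upper and 3 past the lower dotted line.

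The role groups used from here on were chosen after values were seen and do not hold every member. In the large subunit, the mobile stalks that handle tRNA and translation factors held values in both directions. MRPL10, the base on which the factor-binding stalk is built, was at 8.35 on the control array and 9.02 on the anti-miR array, 1.59-fold higher (1 probe set). MRPL12, the stalk protein that has also been linked to mitochondrial RNA polymerase, was at 8.90 and 9.26, a difference of 0.36 ± 0.13 (SD over 2 probe sets). MRPL11, which sits at the foot of this stalk, was near the median gene, with a difference of 0.19 ± 0.06 (SD, 2 probe sets). MRPL1, the protein of the opposite stalk at the tRNA exit, was at 8.31 and 7.64, a difference of -0.66 ± 0.15 (SD over 2 probe sets). It was the 1 large subunit gene at least 1.5-fold lower, and its probe set with the higher level differed by -0.55, short of that threshold.

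The proteins of the catalytic core and the subunit interface were divided evenly. MRPL2, the relative of a bacterial protein near the peptidyl transferase centre, was at 5.54 on the control array and 6.21 on the anti-miR array, a difference of 0.68 ± 0.36 (SD over 2 probe sets). MRPL27, whose bacterial relative reaches toward the same centre, was at 9.74 and 10.34, 1.51-fold higher (1 probe set). MRPL16, also of the core, differed by 0.15. Their neighbours lay on the other side of 0. MRPL3, another core protein, was at 11.11 and 10.88 (-0.24 ± 0.03, SD over 2 probe sets). MRPL14 was at 8.71 and 8.42 (-0.29, 1 probe set) and MRPL19, which like MRPL14 belongs to the interface with the small subunit, at 8.80 and 8.63 (-0.17 ± 0.21, SD over 2 probe sets). The median of these 6 genes was -0.01.

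Proteins that line or surround the exit tunnel for the growing chain were mostly higher. MRPL32, which is matured by a protease of the inner membrane before it joins the ribosome, was at 9.24 on the control array and 10.08 on the anti-miR array, 1.79-fold higher (1 probe set). MRPL4 was at 7.12 and 7.82, a difference of 0.70 ± 0.36 (SD over 3 probe sets), and fell short of 1.5-fold (0.52) as the median of its probe sets. MRPL24, MRPL23 and MRPL17 differed by 0.48, 0.45 and 0.34, and MRPL47, a relative of a bacterial tunnel protein, by 0.17. Lower or level were MRPL22 (9.49 and 9.17, -0.31, 1 probe set) and MRPL45 (7.41 and 7.38, -0.03 ± 0.01, SD over 2 probe sets). MRPL45 is the protein that holds the ribosome to the inner membrane. The 8 tunnel genes had a median of 0.40.

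The central protuberance, a tower on the large subunit, contains several proteins found in mitochondria alone. MRPL18, of bacterial descent, was at 10.26 on the control array and 10.81 on the anti-miR array, and its 3 probe sets gave 0.54 ± 0.11 (SD). MRPL38 differed by 0.40, with both of its probe sets within 0.01 of that value, and MRPL40 by 0.20 (1 probe set). MRPL46 was at 7.45 and 7.17 (-0.28, 1 probe set) and MRPL48 at 7.15 and 6.92 (-0.23 ± 0.06, SD over 2 probe sets). The median of these 5 genes was 0.20, close to that of the median gene.

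The largest difference of any member was that of MRPL44, a protein with a fold related to ribonuclease III, at 8.17 on the control array and 9.08 on the anti-miR array (1.88-fold, 1 probe set). It ranked 209 of 11272 genes by increase. MRPL55 was at 7.40 and 8.08 (1.60-fold) and MRPL54 at 7.43 and 8.02 (1.51-fold), with 1 probe set each. Close to them lay MRPL34 at 9.36 and 9.93. Several genes lay near 0, each read by more than 1 probe set: MRPL39 (-0.02 ± 0.02, SD over 2), MRPL13 (-0.04 ± 0.02, SD over 2), MRPL33 (0.03 ± 0.06, SD over 3) and MRPL28 (0.06 ± 0.04, SD over 3). MRPL42 was at 8.54 and 8.21, and its 3 probe sets agreed on -0.33 ± 0.06 (SD). The other 16 large subunit genes lay from -0.07 (MRPL49) to 0.53 (MRPL35).

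In the small subunit, the 4 genes listed for the body and the decoding site were the most even role group (SD 0.13 over genes). The list was chosen after values were seen, and members without a role group are not in it. MRPS12, the relative of the bacterial protein that monitors decoding, was at 7.09 on the control array and 7.62 on the anti-miR array (0.53 ± 0.07, SD over 3 probe sets). MRPS5 was at 8.51 and 9.04 (0.52 ± 0.02, SD over 2 probe sets), and MRPS16 at 7.91 and 8.35 (0.44 ± 0.01, SD over 3 probe sets). MRPS17 differed by 0.25 ± 0.35 (SD over 3 probe sets). All 4 were higher on the anti-miR array and above the median gene, with a median of 0.48.

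The 5 genes listed as head proteins followed with a median of 0.44. MRPS10 was at 8.94 on the control array and 9.48 on the anti-miR array (0.55 ± 0.06, SD over 3 probe sets). MRPS24, the counterpart of the bacterial S3 protein at the mRNA entry, differed by 0.49 (1 probe set), MRPS7 by 0.44 ± 0.01 (SD over 2 probe sets) and MRPS9 by 0.40 (1 probe set). Of these 5 listed genes only MRPS14 lay below 0, at 8.96 and 8.79 (-0.17 ± 0.01, SD over 2 probe sets). The platform was split, with MRPS11 at 6.31 and 6.86 (0.55 ± 0.20, SD over 5 probe sets), MRPS15 at 0.20, MRPS6 at 7.86 and 7.64 (-0.23, 1 probe set) and MRPS18C at -0.45.

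The 3 paralogs of the S18 family went apart. MRPS18B was the highest small subunit gene, at 7.30 on the control array and 8.09 on the anti-miR array, 1.72-fold higher, with 2 probe sets at 0.75 and 0.82. MRPS18A differed by 0.26 ± 0.28 (SD over 2 probe sets), and its brighter probe set, at 6.85 and 7.31, was above the nonspecific controls on the anti-miR array alone. MRPS18C had a gene value of -0.45 ± 0.60 (SD over 3 probe sets). All probe sets of MRPS18B and 1 of MRPS18C are of the _x_at kind, which can bind transcripts of other genes.

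MRPS28 and MRPS27 had the lowest values of the small subunit genes. MRPS28 was at 7.74 on the control array and 7.06 on the anti-miR array, 1.60-fold lower (1 probe set). MRPS27, a pentatricopeptide repeat protein, was at 6.28 and 5.66, with 4 probe sets that all lay below 0 and averaged -0.62 ± 0.31 (SD). Without its _x_at probe sets MRPS27 differed by -0.51, short of 1.5-fold. MRPS22 (-0.25 ± 0.01, SD over 2 probe sets), MRPS35 (-0.25 ± 0.03, SD over 2 probe sets) and MRPS31 (-0.12, 1 probe set) were lower as well. On the higher side, MRPS2, a protein between head and body, was at 9.41 and 10.03 (1.53-fold, 1 probe set), and MRPS26 at 8.66 and 9.23 (0.57, 1 probe set). MRPS21 differed by 0.27 ± 0.08 (SD over 4 probe sets). Apart from MRPS25, described with its probe sets, the other 4 small subunit genes, MRPS23, MRPS33, MRPS30 and MRPS34, lay between 0.06 and 0.48.

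By number, MRPL1 to MRPL36 and MRPS2 to MRPS21 are mostly relatives of bacterial proteins, and the higher numbers are mostly found in mitochondria alone, with exceptions such as MRPL47 and MRPS24. The lower numbers had medians of 0.35 over 28 large subunit genes and 0.42 over 16 small subunit genes. The higher numbers had medians of 0.22 over 19 large and 0.14 over 12 small subunit genes, nearer to the median gene. The difference between these classes was not tested.

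Where a member was read by several probe sets, these usually pointed the same way. Of 41 members with at least 2 retained probe sets, 25 had all of them above 0, 12 had all below 0 and 4 were mixed. The same split over all genes is not given here, so this is no trait particular to the members. Probe sets of a gene share the same RNA and can share probes, so their spread is a technical error within the arrays. Pooled over the members it was 0.23, and over the 6263 genes of the table with at least 2 probe sets 0.29, which is about as large as the median difference of the members. Over all 150 retained probe sets of the members 73.3% lay above 0, beside 57.5% of all retained probe sets.

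The probe sets of some genes did not agree. The brightest probe set of MRPS18C was at 9.41 on the control array and 9.65 on the anti-miR array, a difference of 0.23, while the others went from 8.11 to 7.22 and from 7.31 to 6.64. It was the single member with probe sets more than 1 unit apart. In MRPS25 the 5 probe sets were all higher on the anti-miR array but ranged from 0.17 to 1.16, with the smaller differences at the brightest and the dimmest. In MRPL52 4 of 5 probe sets lay between 0.26 and 0.36 and the fifth at 1.07. In MRPL4 the probe sets gave 0.47, 0.52 and 1.12. Which transcript each of these probe sets reads was not analysed here.

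**Figure D3:**
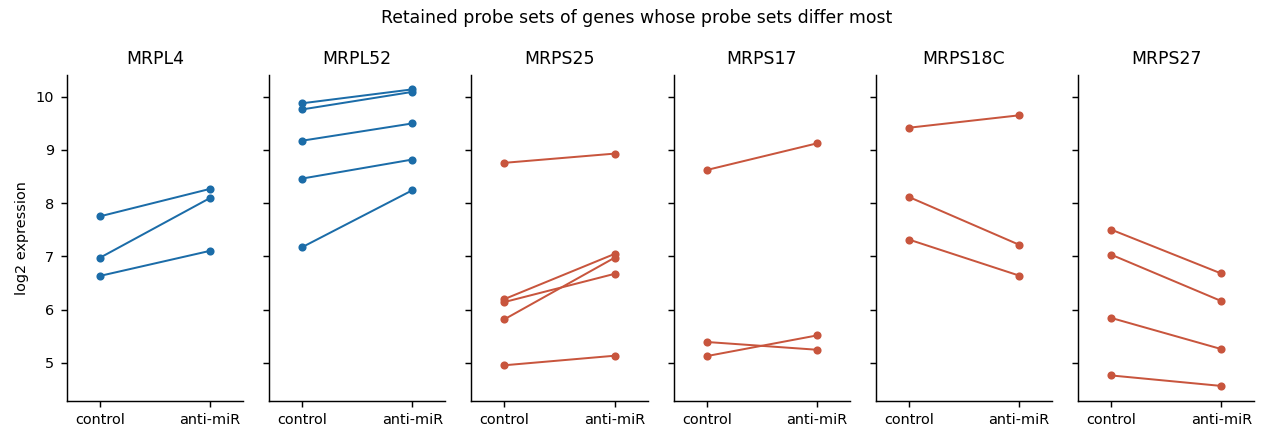
Log2 expression of each retained probe set on the control array and the anti-miR array, for the 6 members whose probe sets lay more than 0.6 apart in difference. Each line is 1 probe set. All lines of MRPL4, MRPL52 and MRPS25 go up and all of MRPS27 go down, while MRPS18C has 1 line that goes up and 2 that go down, and MRPS17 has 1 that goes slightly down.

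The members that were lower were mostly long genes. Genomic span, from the start to the end of a gene in RefSeq, had a median of 8.64 kb over the members and 27.6 kb over all genes. The 58 members of up to 20 kb had a median difference of 0.37, and 51 of them lay above 0. The 18 longer members had a median of -0.17, and 5 of them lay above 0. All 10 members at least 1.5-fold higher were in the shorter class, and the 3 lower ones were among the longest, MRPL1 at 90.0 kb, MRPS27 at 100.8 kb and MRPS28 at 111.5 kb. Of all genes of up to 20 kb 12.9% were at least 1.5-fold higher and 2.39% lower, and of longer genes 5.04% were higher and 22.3% lower. The 5 long genes above 0 were MRPL23 (67.6 kb, 0.45), MRPS9 (61.9 kb, 0.40), MRPS5 (36.6 kb, 0.52), MRPL37 (25.3 kb, 0.22) and MRPS25 (23.1 kb, 0.58). The 7 short genes below 0 were MRPS18C (6.24 kb, -0.45), MRPL14, MRPL46, MRPS22, MRPL19, MRPS14 and MRPL49.

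The same trend ran through the whole table. Genes of up to 20 kb had a median of 0.26 over 4568 genes, and longer genes a median of -0.03 over 6693. Spearman's rho between span and difference was -0.34 across the 76 members and -0.49 across 11261 genes, given as a description, since genes on the same 2 arrays are not replicates. Set against the median of all genes in their own span class (up to 5, 10, 20, 50, 100 kb and above), 42 of 76 members lay above it. These were 37 of the 58 members of up to 20 kb and 5 of the 18 longer ones. The part of gene span in the values of the members was not tested.

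**Figure D4:**
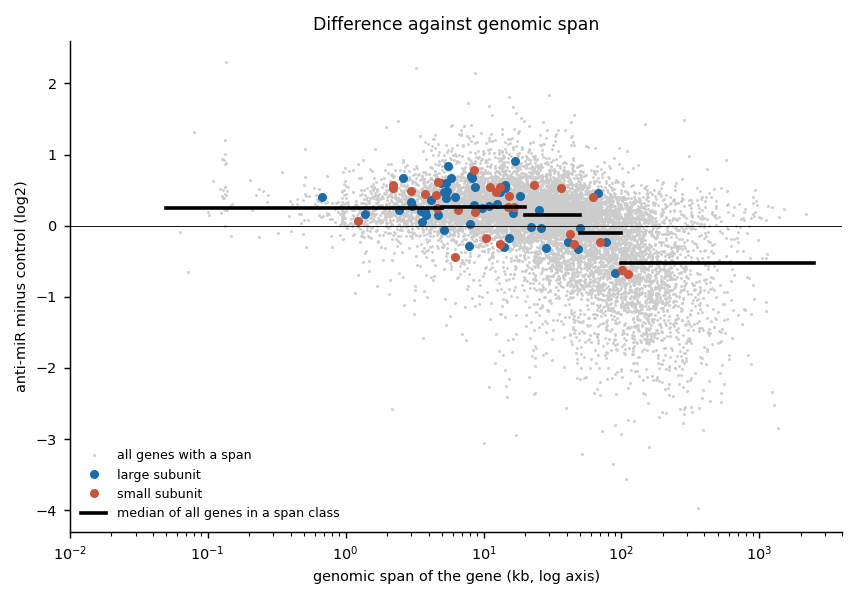
Difference between the arrays (anti-miR minus control, log2) against the genomic span of each gene (kb, log axis), for all genes in grey, large subunit genes in blue and small subunit genes in red. Black bars are the medians of all genes in 6 span classes, which go from 0.25 below 5 kb to -0.53 above 100 kb. The coloured points go from short genes, mostly above 0, to MRPS27 and MRPS28 at the long end below it. From 20 to 50 kb the members had a median of -0.04, below the bar at 0.15.

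Promoters of nuclear genes for mitochondrial proteins are known for sites of ETS factors such as GABPA (nuclear respiratory factor 2), of NRF1 and of YY1. RefSeq promoter sequences (GRCh38.p14, 250 bases before to 50 after the start) were matched for 68 of 76 members, with 84 promoters on 20 chromosomes. The ETS core CCGGAAG was present on either strand in 32 of the 84 (38.1%), beside 10.3% of all 35116 promoters and 12.8% of those of protein-coding genes. The NRF1 motif, whose letters stand in capitals in the windows of MRPL34 and MRPL14, was present in 10 (11.9%). This stood beside 5.78% of all promoters and 7.38% of those of protein-coding genes. The YY1 motif AANATGGCG was present in 18 (21.4%), beside 3.19% of all and 4.24% of those of protein-coding genes. Only 3 of the 18 had it upstream of the start. No ETS, NRF1 and YY1 matches overlapped each other in these promoters. A match is a description of letters and does not show binding.

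Members with and without an ETS core or a YY1 motif had like medians. The 29 members with an ETS core had a median difference of 0.27 and the 39 without it 0.25, and with and without a YY1 motif the medians were 0.27 and 0.26. For NRF1 they were 0.34 over 9 genes and 0.25 over 59. The following windows of 100 bases upstream of the start show the ETS core, in capitals on either strand, in promoters of genes at both ends of the range. They come from MRPL27 (0.60, chr17:50373185-50373284, minus strand), MRPL54 (0.60, chr19:3762582-3762681, plus strand), MRPS18C (-0.45, chr4:83455808-83455907, plus strand) and MRPS22 (-0.25, chr3:139343868-139343967, plus strand). MRPL27 and MRPS22 have 2 matches each in the window.
MRPL27: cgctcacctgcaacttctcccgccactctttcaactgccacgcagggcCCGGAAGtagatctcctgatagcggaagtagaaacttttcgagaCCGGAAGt
MRPL54: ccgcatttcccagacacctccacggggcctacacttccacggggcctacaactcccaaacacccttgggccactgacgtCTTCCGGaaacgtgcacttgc
MRPS18C: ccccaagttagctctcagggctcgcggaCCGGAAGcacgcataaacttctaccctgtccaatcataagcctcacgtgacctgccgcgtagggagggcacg
MRPS22: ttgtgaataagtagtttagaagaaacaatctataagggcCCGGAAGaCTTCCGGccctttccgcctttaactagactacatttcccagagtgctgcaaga

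The NRF1 motif, likewise in capitals, is shown for the highest and the lowest of its genes, MRPL34 (0.57, chr19:17305553-17305652, plus strand) and MRPL14 (-0.29, chr6:44127377-44127476, minus strand). The letters are present in both, and the genes lay on opposite sides of 0. The part of these motifs in the values of the members was not tested.
MRPL34: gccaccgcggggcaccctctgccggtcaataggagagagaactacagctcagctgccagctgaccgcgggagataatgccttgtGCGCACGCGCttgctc
MRPL14: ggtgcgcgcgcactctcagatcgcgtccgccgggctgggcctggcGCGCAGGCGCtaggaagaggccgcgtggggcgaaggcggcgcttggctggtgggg

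Many members share their promoter region with a gene on the other strand. A protein-coding start within 1000 bases, pointing away, was found for 20 of 68 members (29.4%), beside 12.3% of 15842 protein-coding genes. The 18 partners with a value had a median of 0.21. Of these, 2 were at least 1.5-fold higher and 0 lower, beside 8.23% and 14.2% of all genes. Members of a pair did not always go the same way. MRPL46 and MRPS11 face each other and differed by -0.28 and 0.55. MRPS18C was at -0.45, though its brightest probe set differed by 0.23. Its partner HELQ, a DNA helicase, was at 5.07 on the control array and 5.73 on the anti-miR array (0.67). MRPL32 and PSMA2, a proteasome subunit, differed by 0.84 and 0.23, and MRPS12 and SARS2, the mitochondrial seryl-tRNA synthetase, by 0.53 and 0.43. MRPL54 and APBA3 were close to each other at 0.60 and 0.62. The gene values of HELQ, SARS2 and APBA3 lay below the highest nonspecific control probe set on both arrays, so their folds are not exact sizes.

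Other proteins of the same ribosome that carry different names were near the members. DAP3, a GTP-binding protein of the small subunit, was at 8.37 on the control array and 8.65 on the anti-miR array (5 probe sets from 0.21 to 0.32). GADD45GIP1, PTCD3 and CHCHD1 differed by 0.39, 0.33 (6 probe sets from -0.38 to 0.65) and 0.15, so none of the 4 measured of 5 listed passed 1.5-fold, and their median was 0.30. Of 28 listed factors for assembly and rRNA modification 26 were measured, with a median of 0.24. Of these, 4 (15.4%) were higher and 2 (7.69%) lower, beside 8.23% and 14.2% of all genes. NSUN4, an rRNA methyltransferase, was at 5.82 and 6.999 (2.26-fold, 3 probe sets from 0.84 to 1.58). NOA1, a GTPase, was at 8.02 and 9.09 (2.11-fold, 1 probe set), and MRM3, which methylates the large rRNA, at 7.11 and 8.13 (2.03-fold, 1 probe set). MTG2, also a GTPase of large subunit assembly, was 1.51-fold higher but fell short of 1.5-fold in 6 of the alternatives, down to 0.46 for its brightest probe set. FASTKD2, an RNA-binding protein, was at 5.86 and 4.94 (1.88-fold lower, 3 probe sets from -1.29 to -0.67), and METTL15, an rRNA methyltransferase, at 6.58 and 5.65 (-0.93, 1 probe set). With dim probe sets kept METTL15 differed by -0.46, short of 1.5-fold. No probe set of NSUN4, MTG2, FASTKD2 or METTL15 lay above the nonspecific controls on both arrays, so these folds are not exact sizes.

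The 15 measured of 16 translation factors had a median of 0.14, close to the median gene. Of these, 2 were higher and 2 lower (13.3% each), beside 8.23% and 14.2% of all genes. GFM1, the mitochondrial elongation factor G, was at 8.20 on the control array and 7.17 on the anti-miR array (2.04-fold lower, 2 probe sets within 0.01 of each other). LRPPRC, which stabilises mitochondrial mRNAs, was at 7.67 and 6.16 (2.86-fold lower), but its 4 probe sets ranged from -2.27 to -0.12. MTRF1, a release factor with no probe set above the nonspecific controls on both arrays, was 1.82-fold and MTFMT, which formylates the initiator tRNA, 1.54-fold higher. With dim probe sets kept MTFMT differed by 0.51, short of 1.5-fold. TUFM, elongation factor Tu, differed by 0.30. The differences of GFM1 and LRPPRC were larger in size than that of any member, and these genes span 51.1 kb and 110.0 kb.

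Genes for mitochondrial DNA upkeep and transcription had the highest list median, 0.46 over 10 genes. Of these, 4 were higher and 1 lower, beside 8.23% and 14.2% of all genes. TWNK, the helicase of mitochondrial DNA, was at 6.45 on the control array and 7.80 on the anti-miR array (2.55-fold, 2 probe sets at 1.21 and 1.49). POLG and POLG2, subunits of the mitochondrial DNA polymerase, were 1.79-fold higher each (1 probe set each), and MTERF1, a transcription termination factor, 1.75-fold. TEFM, the elongation factor of the mitochondrial RNA polymerase, was at 7.54 and 6.90 (1.56-fold lower, 1 probe set), but differed by -0.30 with dim probe sets kept, short of 1.5-fold. TWNK, POLG2 and TEFM had no probe set above the nonspecific controls on both arrays. TFAM, which packages mitochondrial DNA, differed by 0.06.

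Of 10 listed regulators of nuclear genes for mitochondrial proteins 7 were measured, with a median of 0.10 that becomes -0.03 once the median of all genes is subtracted. GABPB1, the partner of GABPA in the ETS-binding complex, was at 6.005 on the control array and 4.97 on the anti-miR array (2.04-fold lower, 3 probe sets from -1.13 to -0.89). GABPB1 and NRF1 had no probe set above the nonspecific controls on both arrays. GABPA differed by 0.22, NRF1 by -0.09, YY1 by 0.10 and MYC, which is known to induce mitochondrial biogenesis, by -0.49. The highest of the 7 were PPRC1 (0.55, 1 probe set) and ESRRA (0.32, 2 probe sets from -0.01 to 0.66), both short of 1.5-fold. For comparison, 34 complex I subunits had a median of 0.24, with 0 higher and 2 (5.88%) lower. The 75 cytosolic ribosomal proteins had a median of 0.10, with 4 (5.33%) higher and 0 lower. Of all genes 8.23% were higher and 14.2% lower. With the median of all genes subtracted the cytosolic list lay at -0.03. The cytosolic genes were also less spread, with an SD of 0.20 over genes against 0.36 in the mitochondrial ribosome, and had a median span of 5.13 kb. The lists were not matched for level, and the differences between them were not tested.

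**Figure D5:**
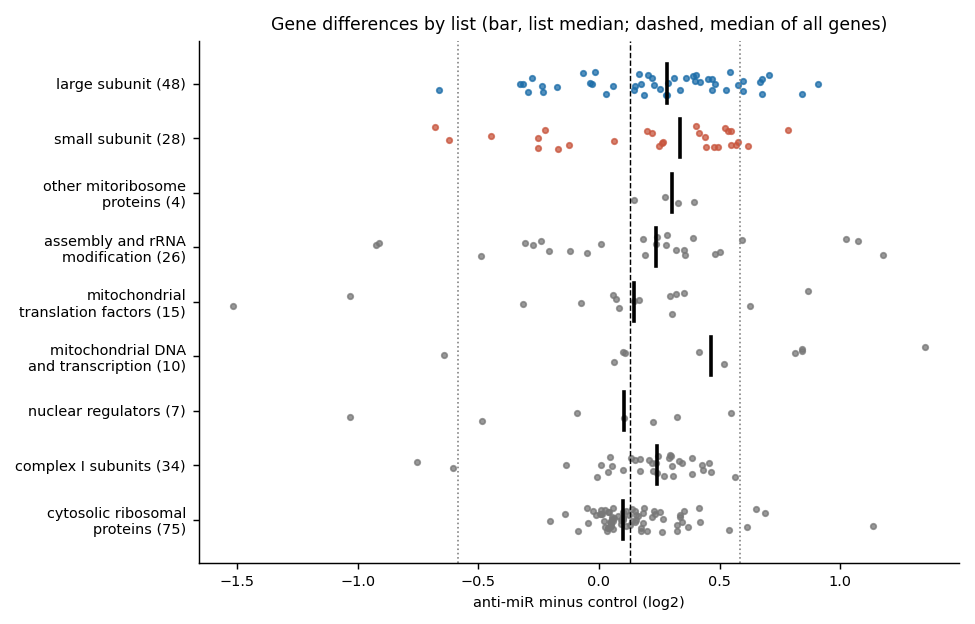
Difference between the arrays (anti-miR minus control, log2) for each measured gene of 9 lists, with the number of genes in parentheses. Thick bars are list medians, the dashed line is the median of all genes (0.13) and the dotted lines mark 1.5-fold. The bars of both subunits, at 0.28 and 0.33, lie to the right of the dashed line, as do those of complex I (0.24) and of the mitochondrial DNA and transcription list (0.46), while that of the cytosolic ribosomal proteins (0.10) lies just left of it.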

How the data were processed

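Total RNA from 1 anti-miR and 1 control culture was labelled with biotin (10 ng each) and measured on 1 array each. The deposited values are log2 expression per probe set, made by the authors. The submitters' processing notes name RMA. Its version is not given in the sources used here, nor is whether both arrays were normalized together. Quantile normalization, a usual step of RMA, reduces a shift shared by all genes. The number of arrays limits the precision.

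Of 49386 probe sets, 45253 had a single symbol and were no controls, 1327 had several symbols and 2800 none. Of the first, 45172 matched RefSeq by Entrez ID. Probe sets that reached the median (4.64 and 4.63) on at least 1 array were averaged per gene. Left out were 5 probe sets with several symbols that include a member pattern, 2 of the antisense gene MRPL20-AS1, and KGD4, formerly MRPS36. Genes were counted at 1.5-fold.

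Members and lists were chosen with earlier results of these data known. Named were members past 1.5-fold, the 8 highest and 8 lowest per subunit, those with probe sets more than 1 unit apart, the 4 per subunit with 3 or more probe sets in 1 direction and the smallest SD, the S18 paralogs, and up to 6 genes past 1.5-fold per other list. Further members, role groups, motifs, promoter partners and other genes of the lists were named or chosen after values were seen. Alternatives were other filters, probe-set choices, scalings and thresholds. The gene averaging was tested on simulated data. Python 3.11.15, numpy 2.4.6, pandas 2.3.3 and statsmodels 0.14.6 were used.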

Additional observations from a re-analysis of the deposited data

Results flagged for a closer look

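Values above those of the control array were found in 3 sets of probe sets outside the comparison of the members. The retained probe set of MRPL20-AS1, an antisense RNA gene beside MRPL20, was at 6.03 on the control array and 6.24 on the anti-miR array. Both levels lay below the highest nonspecific control probe set (6.87 and 7.16). The difference was 0.21, beside 0.13 for the median gene. KGD4, whose older symbol is MRPS36 and which belongs to the 2-oxoglutarate dehydrogenase complex, was at 7.14 and 7.62, a difference of 0.48 ± 0.03 (SD over 3 probe sets). Poly-A control probe sets were higher by 0.32.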

How the results depend on the processing

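No paired analysis was possible because only 1 array stands on each side, and no array could be left out. Against 10 members higher (8 large, 2 small) and 3 lower (1 large, 2 small), centring on the median gave 3 higher (2 large, 1 small) and a lowess trend (fraction 0.3) 5 higher (4 large, 1 small). Of all genes, 928 were higher and 1602 lower, and 499 and 547 were higher under these settings. At 2-fold 0 members were higher and 0 lower, in either subunit, beside 139 and 787 of all genes. Plain _at probe sets alone left fewer genes, among them 27 members (17 large, 10 small). Of these, 4 were higher (3 large, 1 small) and 2 lower (0 large, 2 small), beside 317 higher and 507 lower of 3407 genes. MRPL1, the large subunit member that was lower before, has no plain _at probe set. A filter at the 75th percentile gave 4 of 28 small subunit members higher, beside 801 of 6552 genes. The probe set with the highest level gave 4 of 28 small subunit members higher and 0 of 48 large subunit members lower. Beside these stood 1078 higher and 1638 lower of 11272 genes. A restriction to members below 20 kb, added after seeing the data, gave 0 lower, beside 2.39% of all genes of up to 20 kb. The median over all members was 0.15 to 0.37 under all settings. Of the 54 genes named by the rule, 29 passed 1.5-fold, and none of these 29 turned direction where measured. Among the other 25, MRPS18C went from -0.45 to 0.23 with the highest probe set, and MRPL28 from 0.06 to -0.07 with centring and with the lowess trend. Centring took 9 of the 29 below 1.5-fold, the lowess trend 7, and no filter on dim probe sets 3 (METTL15, MTFMT and TEFM). With 1 array per group the precision is limited by the number of arrays and, for dim probe sets, by the nonspecific signal.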
